A study of Mus musculus with 9 samples.

Results

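The phagocyte NADPH oxidase is the enzyme complex with which microglia and other phagocytes make superoxide. It was described here by 7 genes: Cybb, Cyba, Ncf1, Ncf4, Rac1, Rac2 and Hvcn1. These were chosen by symbol, as subunits of the oxidase and the proton channel that works beside it. All 7 were among the 45664 symbols of the count table, and all 7 passed the filter on low counts that left 13067 genes for testing.

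Microglia were isolated from the visual cortex of 9 male C57BL/6 mice in adolescence, and the RNA of each mouse made 1 library. All mice were injected under the skin of the back 2 times a day from postnatal day 4 to postnatal day 9. The 5 saline mice received saline and were 36, 30, 35, 29 and 30 days old at collection (saline 1 to 5). The 4 ethanol mice received 1.8 g per kg of ethanol per injection, as a 20% v/v solution in saline, for 3.6 g per kg a day, and were 35, 35, 30 and 30 days old (ethanol 1 to 4). The sort took live cells with CD11b and low CD45. The mice came from 3 litters, but which mouse belonged to which litter is not stated. The comparison asked whether ethanol in this early period left the level of these transcripts changed in adolescence.

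As background, the oxidase has a membrane core made of a catalytic chain, encoded by Cybb (gp91phox, also called Nox2), and a partner chain, encoded by Cyba (p22phox). At rest the cytosolic subunits stay apart from this core. On stimulation they move to the membrane together with a Rac GTPase, and electrons pass from NADPH through the core to oxygen. The voltage-gated proton channel encoded by Hvcn1 lets out the protons left behind in the cytosol. In microglia the oxidase is known as a source of superoxide during phagocytosis and inflammation.

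Library totals ranged from 12816198 to 28859244 counts. Levels are given as CPM, counts relative to library size after scaling by the trimmed mean of M values. The 12 microglia markers summed to between 60078 and 70973 CPM, Csf1r being the highest. The 12 monocyte and neutrophil markers, of cells that are rich in this oxidase, summed to between 4.92 and 16.2 CPM, Ccr2 being the highest, and S100a8, S100a9, Elane and Retnlg were listed at 0 in all 9 libraries. A pair of libraries stood apart from the rest. In saline 1 the 12 neuron markers summed to 5.55 CPM, against 29.4 to 93.8 CPM elsewhere. In ethanol 2, 709 of 8480 abundant genes (mean of at least 10 CPM) were more than 2-fold low, against 3 to 44 in each other library. None of the 7 genes was more than 2-fold low in ethanol 2, though Cybb, with a mean under 10 CPM, is not among the 8480. At the share of low genes in that library, few or none of 7 genes would be low in any case.

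Cybb and Cyba encode the chains of one membrane protein, yet their transcripts stood at opposite ends of the 7 genes in CPM per kb of transcript. The 250 bases before the RefSeq start of each gene (GRCm38.p6, minus strand) are shown, as chrX:9469325-9469574 for Cybb and chr8:122432941-122433190 for Cyba. Whether these bases have a part in the levels was not tested. Capitals mark matches to CCAAT or to GGGCGG, a GC box of the Sp1 type.
Cybb: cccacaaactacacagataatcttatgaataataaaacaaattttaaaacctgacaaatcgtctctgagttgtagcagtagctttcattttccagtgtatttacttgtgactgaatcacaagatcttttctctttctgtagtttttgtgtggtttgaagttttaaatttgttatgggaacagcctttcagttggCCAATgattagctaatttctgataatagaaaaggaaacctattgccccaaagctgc
Cyba: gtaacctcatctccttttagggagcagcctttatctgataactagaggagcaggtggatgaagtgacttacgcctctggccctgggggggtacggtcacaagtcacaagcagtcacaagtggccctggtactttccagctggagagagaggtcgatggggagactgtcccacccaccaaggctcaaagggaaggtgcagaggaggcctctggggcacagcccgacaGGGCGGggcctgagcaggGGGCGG
The RefSeq start of Cybb, at 9469324, lies inside the gene as GENCODE M21 draws it, so transcripts that begin further upstream have another promoter. The Cybb window held 34% G and C and the Cyba window 60%. Windows were found for 3 of the 7 genes. They were searched on both strands, over 300 bases that end 50 bases after the start, for CCAAT (in 37.4% of the 32851 windows of all genes), GGGCGG (35.7%), TATAAA (13.6%) and GAGGAA, a core of the kind bound by PU.1 (28.3%). Cybb held 1 CCAAT, 56 bases before the start, and 1 GAGGAA on the reverse strand at base 10 after it, at chrX:9469303-9469322, where the 20 bases with the motif in capitals read ttttcatTTCCTCatcagaa. Cyba held 2 copies of GGGCGG, 24 and 6 bases before its start, and Ncf1 held 1, 42 bases before its own start. A match of letters in a window is a description and not evidence of a bound site.

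Among the membrane subunits, Cybb was barely detected. The gene lies on chromosome X (9435252 to 9487771, GRCm38, minus strand) and has up to 13 exons. Its level was 0.785, 3.79, 2.80, 3.82 and 3.03 CPM in saline 1 to 5, and 2.94, 2.24, 2.92 and 1.19 CPM in ethanol 1 to 4. Saline 1 and ethanol 4 were low, the other 7 libraries lay close together, and the groups overlapped. These levels rested on 14 counts in saline 1 (95% Poisson interval 7.65 to 23.5), 24 counts in ethanol 4 (15.4 to 35.7) and 37 to 110 counts elsewhere, where the intervals cover counting error only. Only 20.6% of the genes tested had a lower mean than Cybb. In bulk RNA, fewer cells that carry a transcript and less of it per cell cannot be told apart. The level is that of the row in this table, and the handling of ambiguous reads in counting is unknown here. Rpl24, a ribosomal protein gene that all cells use, was also low (0.435 CPM, against a median of 32.7 CPM over 74 such genes). Whether a loss of reads in counting had a part in either row was not tested. No exon of Cybb overlapped another annotated gene. Rpl24 was chosen after its values were seen.

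Cyba, by contrast, was abundant. The gene lies on chromosome 8 (122424776 to 122432930, minus strand) and has a short transcript with up to 6 exons. Its level was 353, 285, 306, 330 and 292 CPM in saline 1 to 5, and 327, 371, 355 and 301 CPM in ethanol 1 to 4. Ethanol 2 was the highest and saline 2 the lowest, and the groups overlapped. 96.6% of the genes tested had a lower mean.

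The cytosolic subunits were both well measured. Ncf1 (p47phox) is the organiser that carries the cytosolic complex to Cyba. It lies on chromosome 5 (134220053 to 134229625, minus strand), and 11.1% of its exonic bases overlapped the antisense gene Gtf2ird2 (mean 40.6 CPM). Its level was 477, 440, 574, 536 and 502 CPM in saline 1 to 5, and 540, 502, 475 and 456 CPM in ethanol 1 to 4. The widest spread was inside the saline group, from saline 2 to saline 3, and the ethanol libraries lay within it. Ncf4 (p40phox), whose PX domain binds a lipid of the phagosome membrane, lies on chromosome 15 (78244801 to 78262580, plus strand). Its level was 76.4, 73.1, 67.3, 66.7 and 69.6 CPM in saline 1 to 5, and 73.4, 86.0, 69.2 and 71.1 CPM in ethanol 1 to 4. Ethanol 2 was high and the other 8 libraries were mixed between the groups.

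Rac1 and Rac2 encode GTPases that can each serve the oxidase, Rac1 in cells of all kinds and Rac2 mainly in blood cells and their relatives. Rac1 (chromosome 5, 143503634 to 143528036, minus strand) was the most abundant of the 7 genes in CPM. Its level was 660, 590, 613, 631 and 617 CPM in saline 1 to 5, and 657, 613, 668 and 574 CPM in ethanol 1 to 4. The ethanol libraries included both the highest and the lowest value. Of its exonic bases 51.4% overlapped the antisense gene Daglb, which stood at a similar level (mean 672 CPM). Whether counting used strand is unknown here, so reads in the shared bases may not be told apart from those of Daglb, or may have been lost. Rac2 (chromosome 15, 78559167 to 78572783, minus strand) had no such overlap. Its level was 163, 153, 151, 158 and 156 CPM in saline 1 to 5, and 161, 184, 166 and 157 CPM in ethanol 1 to 4. Ethanol 2 stood above the other 8 libraries, which lay between 151 and 166 CPM.

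Hvcn1, the proton channel gene, lies on chromosome 5 (122206804 to 122242297, plus strand). Its level was 158, 140, 125, 138 and 135 CPM in saline 1 to 5, and 138, 162, 148 and 127 CPM in ethanol 1 to 4. The highest libraries were ethanol 2 and saline 1, 1 from each group. Of its exonic bases 44.2% overlapped the antisense gene Tctn1, whose own level was low (mean 8.32 CPM).

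**Figure D1:**
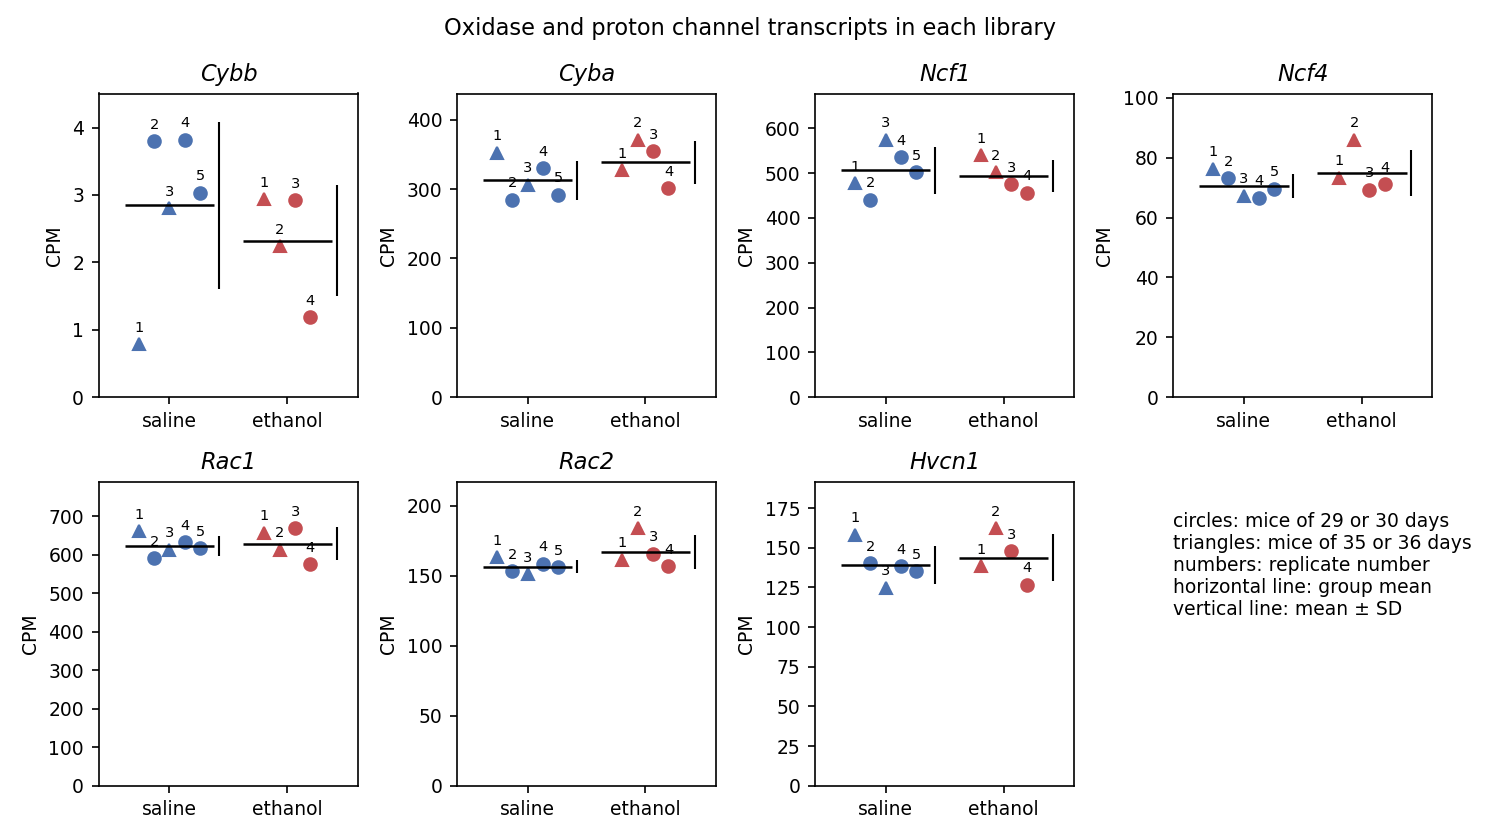
CPM of each of the 7 genes (vertical axes, each from 0) in the 5 saline libraries (blue) and the 4 ethanol libraries (red), 1 point per mouse labelled with its replicate number (triangles, older mice; circles, younger mice), with the group mean and SD in black. The groups overlap in every panel, and Cybb is the only gene with points far below its group, saline 1 at 0.785 CPM and ethanol 4 at 1.19 CPM.

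Levels between genes were compared per length, as CPM per kb of the median protein-coding transcript. Cyba was the highest, at 469 ± 44.1 CPM per kb (SD, n = 9), followed by Rac1 at 193 ± 9.92, Ncf1 at 181 ± 15.7, Hvcn1 at 140 ± 12.6, Rac2 at 97.8 ± 5.91 and Ncf4 at 64.3 ± 5.24 CPM per kb. Cybb was far below, at 1.02 ± 0.407 CPM per kb. The mean of Cyba was 462 times that of Cybb, and the lowest of the other 6 genes, Ncf4, was 63.3 times above it. Rac1 was above Ncf1 in 8 of 9 libraries, with overlapping ranges, and the order of these neighbours was not tested. Each other gene was above the next in all 9 libraries, though the ranges of Ncf1 and Hvcn1 also overlapped.

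The order in the middle depended on the transcript chosen. With the longest annotated transcript, Ncf1 (174 CPM per kb) stood above Rac1 (150), and Rac2 (53.0), Hvcn1 (50.4) and Ncf4 (49.5) were nearly level. Cyba stayed highest (436) and Cybb lowest (0.550), 793 times apart. For Cybb the median length of 2571 bases lies between a full transcript of 4752 bases and a short one. Rac1 was 1.97 times Rac2 per kb with the median and 2.83 times with the longest transcript. Lengths were not reduced for bases shared with antisense genes, as in Rac1, Hvcn1 and Ncf1.

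**Figure D2:**
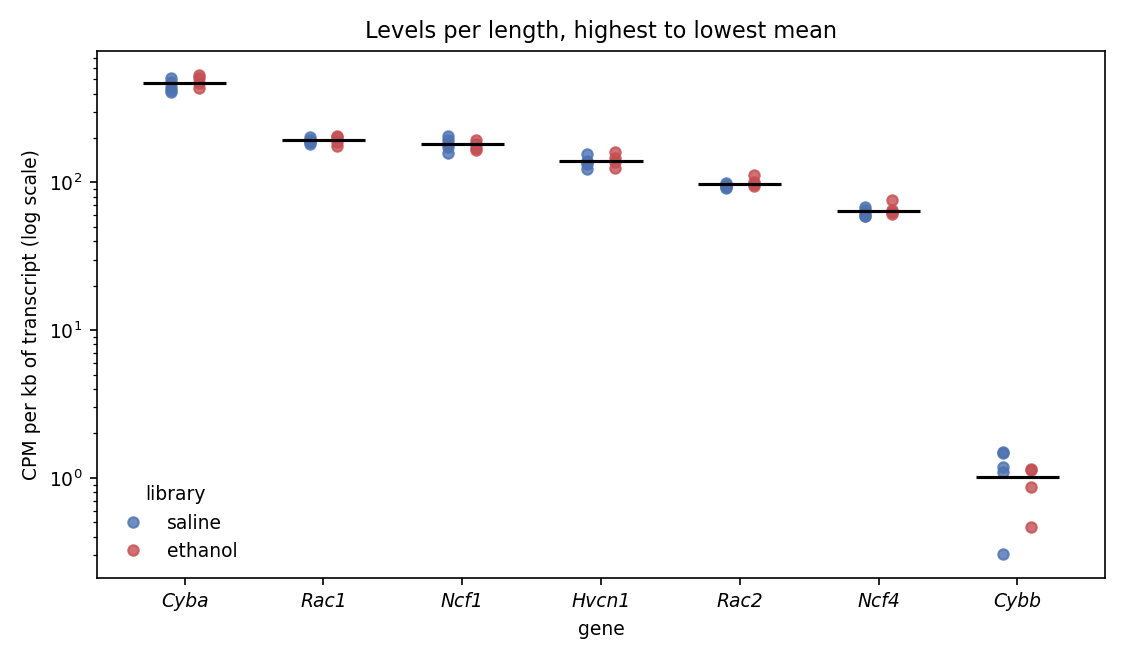
CPM per kb of the median protein-coding transcript (vertical axis, log scale) for the 7 genes, ordered by mean, with 1 point per library (saline blue, ethanol red) and the mean of the 9 libraries as a line. The 6 genes other than Cybb lie between 59.1 and 537 CPM per kb, while all points of Cybb lie between 0.305 and 1.48 CPM per kb.

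Ethanol against saline was the main comparison. None of the 7 genes rose or fell with ethanol in edgeR's quasi-likelihood test (adjusted p from 0.963 to 0.986). Among all genes 0 of 13067 passed (0% of genes tested). At an unadjusted p under 0.05 there were 0 of the 7 genes, against 2.95% of all genes, and for 0 of the 7 did the groups not overlap, against 1.29% of all genes. DESeq2 and limma-voom also called 0 of the 7 genes, and 0 of the 7 had an unadjusted p under 0.05 with either, against 435 and 512 of all genes.

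The intervals show how large a change these data allow. The log2 fold change of Cyba was 0.11 ± 0.09 (SE; 95% interval -0.08 to 0.31), from 313 ± 28.1 CPM with saline (SD, n = 5) to 338 ± 30.7 CPM with ethanol (SD, n = 4). That of Ncf1 was -0.04 ± 0.09 (-0.23 to 0.16) and that of Ncf4 0.09 ± 0.09 (-0.11 to 0.28). For the GTPases it was 0.01 ± 0.07 (-0.14 to 0.16) for Rac1 and 0.09 ± 0.07 (-0.06 to 0.25) for Rac2, and for the channel gene Hvcn1 it was 0.05 ± 0.09 (-0.16 to 0.25). For these 6 genes the intervals spanned from 0.852-fold (Ncf1) to 1.24-fold (Cyba). Over the 7 genes 5 log2 fold changes were above 0 and the median was 0.05, against 6505 of 13067 above 0 and a median of -0.00068 over all genes.

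Cybb could be judged much less closely. It averaged 2.85 ± 1.24 CPM with saline (SD, n = 5) against 2.32 ± 0.824 CPM with ethanol (SD, n = 4), a log2 fold change of -0.31 ± 0.42 (SE). The 95% interval ran from -1.24 to 0.62, or from 0.424-fold to 1.54-fold, which includes a fall by 2-fold. Without saline 1 the log2 fold change was -0.55 (adjusted p = 0.944, edgeR), without ethanol 4 it was -0.09 (adjusted p = 0.966, edgeR), and the adjusted p ranged from 0.876 to 0.9997 over all alternatives.

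**Figure D3:**
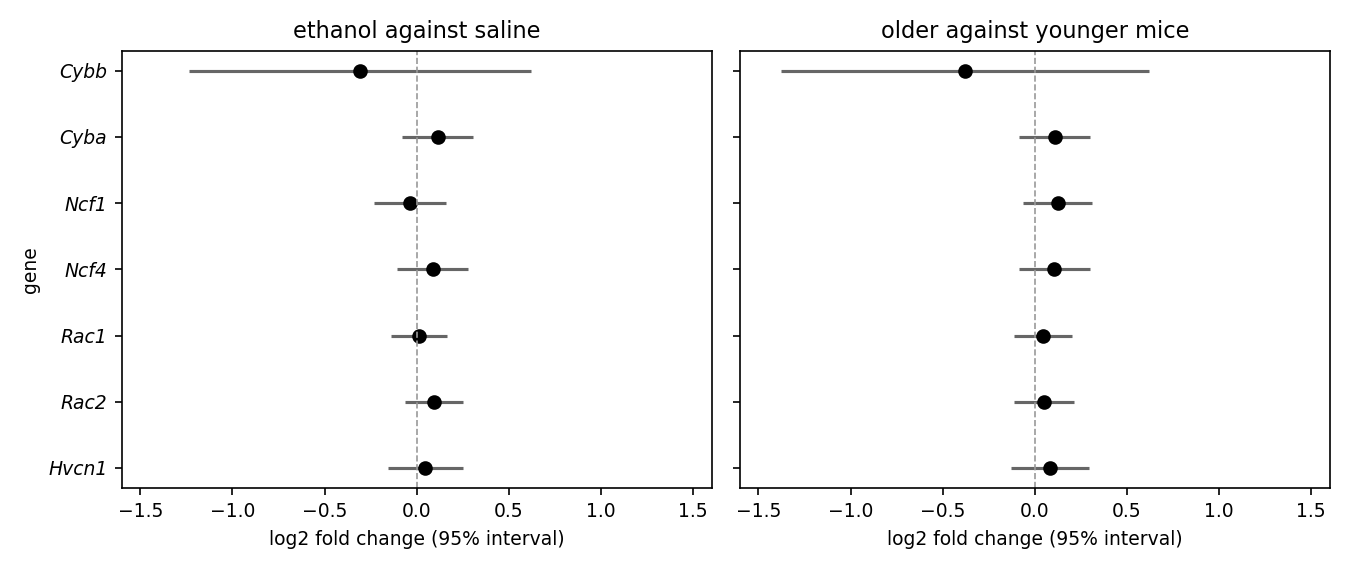
Log2 fold changes (horizontal axis, points) with 95% intervals (lines) of the 7 genes, for ethanol against saline (left) and for older against younger mice (right). All 14 intervals include 0, and those of Cybb are the widest, for example from -1.24 to 0.62 for ethanol.

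Ratios between partners within a library do not depend on scaling, and 4 were tested with exact two-sided permutation tests over all 126 splits of the mice (smallest possible p 0.00794). The log2 ratio of Cyba to Cybb was 6.97 ± 1.05 in saline (SD, n = 5) and 7.27 ± 0.539 in ethanol mice (SD, n = 4), a difference of 0.30 (exact permutation p = 0.627). The ratio of Ncf4 to Ncf1 differed by 0.12 (exact permutation p = 0.389), that of Rac2 to Rac1 by 0.08 (exact permutation p = 0.278) and that of Hvcn1 to Cybb by 0.23 (exact permutation p = 0.714). None passed, with an adjusted p of 0.714 for all 4. The ratio of Rac2 to Rac1 was narrow in saline mice, from -2.02 to -1.95, and in ethanol mice reached -1.74 in ethanol 2 and -1.87 in ethanol 4 with the other pair at -2.03 and -2.01.

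Both ratios with Cybb turned on saline 1, where Cyba to Cybb was 8.81 against 6.23 to 6.77 in the other saline libraries. Without saline 1 the difference was 0.77 for Cyba to Cybb and 0.70 for Hvcn1 to Cybb, both with an exact permutation p of 0.0286, the smallest that those 70 splits allow in either direction, and an adjusted p of 0.0571. All 4 ethanol libraries were then above the 4 saline libraries, by 0.03 at the nearest for Cyba to Cybb. Saline 1 stood out in these same ratios, and both ratios share Cybb. The separation and its p-values are therefore a description and not support for a difference with ethanol. How often other ratios separate in this way was not tested. Without ethanol 4 the differences were 0.06 and -0.00073.

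Age was the second difference between the mice. In edgeR's test of the 4 older mice (35 or 36 days) against the 5 younger mice (29 or 30 days), with ethanol as a covariate, 0 of the 7 genes passed (adjusted p 0.973 for each) and 0% of all genes did. At an unadjusted p under 0.05 there were 0 of the 7, against 2.85% of all genes, and 0 of the 7 had groups that did not overlap, against 1.24% of all genes. Of the log2 fold changes 6 were above 0, from 0.04 for Rac1 to 0.12 for Ncf1, and that of Cybb was -0.38 ± 0.45 (SE; 95% interval -1.38 to 0.62). The library names carry a suffix that follows the age cohort except in saline 4, and saline 1 has another, and the part of what it marks in the age differences was not tested. Without saline 1, the oldest mouse, that of Cybb was 0.04. Without saline 1 and ethanol 2, which are both older mice, Ncf1 had 0.22 (unadjusted p = 0.0245, adjusted p = 0.906, edgeR).

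Whether ethanol acted differently in the age cohorts was tested as an interaction. No gene of the 7 passed (edgeR, adjusted p from 0.972 to 0.994), 0% of all genes did, and 0 of the 7 against 3.24% of all genes had an unadjusted p under 0.05. The largest term was that of Cybb, at 1.30 ± 0.82 (SE; 95% interval -0.55 to 3.15). The log2 fold change of Cybb with ethanol was 0.52 in the older mice alone, where saline 1 is 1 of the saline mice, and -0.80 in the younger mice alone, where ethanol 4 is 1 of the ethanol mice. Without saline 1, where saline 3 is the only older saline mouse, the interaction term fell to 0.67. Without saline 3 it was 2.50, and there saline 1, with its low Cybb, is the only older saline mouse.

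Apart from Cybb, the genes varied little between mice. The coefficient of variation over the 9 libraries was 5.15% for Rac1, 6.04% for Rac2, 8.15% for Ncf4, 8.67% for Ncf1, 9.00% for Hvcn1 and 9.39% for Cyba. The median over the 8480 abundant genes was 11.97%, and 2.78% of them varied less than Rac1. Cybb had a coefficient of 40.1%, much of it from saline 1 and ethanol 4, at log2 differences of -1.86 and -1.24 from the mean of the other libraries. Saline 1 had the lowest sums of neuron (5.55 CPM), astrocyte (271 CPM) and oligodendrocyte markers (199 CPM), and the highest of endothelial and pericyte markers (89.7 CPM). It also had the fewest sorted cells (8923) and the fewest genes detected (16835). Ethanol 4 had the highest sums of neuron (93.8 CPM) and oligodendrocyte markers (266 CPM). The part of other cell types in the level of Cybb was not tested.

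Ethanol 2 was the highest library for 4 genes, Cyba (log2 difference 0.22), Ncf4 (0.28), Rac2 (0.22) and Hvcn1 (0.23), but not for Ncf1 (0.0048) or Rac1 (-0.03). The sum of microglia markers was also highest in ethanol 2, at 70973 CPM. Without ethanol 2 alone the log2 fold change with ethanol was 0.0623 for Cyba, 0.0088 for Ncf4, 0.041 for Rac2 and -0.0213 for Hvcn1. Without both saline 1 and ethanol 2 it was 0.11 for Cyba, 0.04 for Ncf4, 0.06 for Rac2 and 0.03 for Hvcn1. None of the 4 passed edgeR's test in any of these fits.

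**Figure D4:**
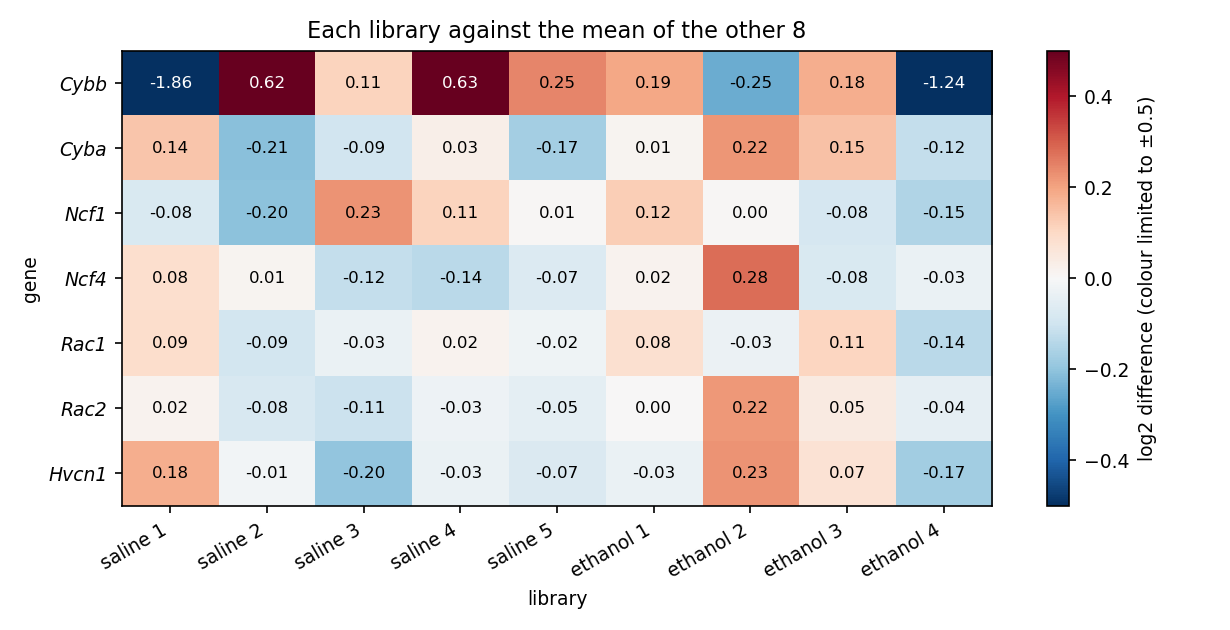
Log2 difference of each library (columns) from the mean of the other 8 for each gene (rows), printed in the cells and coloured from blue (lower) to red (higher), with colours limited to 0.5 in either direction. Ethanol 2 is the highest library for Cyba, Ncf4, Rac2 and Hvcn1, and the largest values are those of Cybb in saline 1 (-1.86) and ethanol 4 (-1.24).

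For each gene, the abundant genes most like it across the 9 libraries were listed by Pearson's r of log2 CPM, out of 8203 candidates, as a description with no test. A search of that size over 9 libraries can give high values by chance alone. The r without saline 1 and ethanol 2 is for genes already picked over all 9 libraries, so it is no separate check. Rac2 was nearest to Cx3cr1, the fractalkine receptor gene of microglia (r = 0.97, and 0.88 without saline 1 and ethanol 2), and to Tcea1, a transcription elongation factor gene (0.97 and 0.95). Hvcn1 was nearest to Fuca1, a lysosomal fucosidase gene (0.97 and 0.97), and to the microglial receptor gene Fcrls (0.97 and 0.91). Cyba was nearest to Bhlhb9 (0.99 and 0.99) and the proteasome gene Psma1 (0.95 and 0.91), and Ncf4 to the ubiquitin ligase gene Hace1 (0.98 and 0.91) and the thioredoxin reductase gene Txnrd2 (0.98 and 0.90). All 8 of these neighbours were highest in ethanol 2.

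The genes nearest to Ncf1 and Rac1 were others. Ncf1 was nearest to the co-chaperone gene Stip1 (0.97 and 0.98) and to Ucp2, a mitochondrial carrier gene (0.97 and 0.98), which were highest in saline 3 and lowest in saline 2, as Ncf1 was. Rac1 was nearest to Lman2, a cargo receptor gene of the secretory pathway (0.93 and 0.92), and Mtus1 (0.90 and 0.89). Cybb was nearest to the zinc finger gene Zfp664 (0.89 and 0.74) and Appbp2 (0.87 and 0.76), both lowest in saline 1.

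Other genes of the pathway were read from 4 lists. Of 13 other subunits and relatives of the oxidase in the table, 6 passed the count filter, 0 were called in either direction in edgeR's test, and 3 of 6 had values above 0 (median 0.0095 on the log2 scale). The catalytic relatives Nox3 and Nox4 were listed at 0 in all libraries, while Nox1 averaged 0.128 CPM, Duox1 0.0313 CPM and Duox2 0.0353 CPM. BC017643, the symbol in the table for Cybc1, which encodes a chaperone of the membrane core, averaged 224 ± 24.2 CPM with saline (SD, n = 5) against 222 ± 12.8 CPM with ethanol (SD, n = 4). Rap1a, a GTPase gene, had the smallest p of the list, with means of 77.9 ± 7.77 and 87.1 ± 4.88 CPM (SD; n = 5 saline, n = 4 ethanol) and a change of 0.16 ± 0.09 on the log2 scale (SE; adjusted p = 0.963, edgeR).

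Among exchange factors, inhibitors and other regulators of Rac, 18 of 20 were tested, 0 were called in either direction, 9 were above 0 and the median was 0.0086. Elmo1, part of an exchange factor that acts in engulfment, was the most abundant (911 ± 45.4 and 923 ± 17.0 CPM, a log2 fold change of 0.02 ± 0.06). Prex2, the exchange factor gene with the smallest p, averaged 1.45 ± 1.30 and 3.94 ± 2.81 CPM, was at 0 counts in saline 1, and had a log2 fold change of 1.41 ± 0.84 (SE; adjusted p = 0.963, edgeR). Among kinases and lipases that act upstream of the oxidase, all 25 were tested and 0 were called. Of these 7 were above 0, against 6505 of 13067 of all genes, and the median was -0.04. The summed CPM of this list was lowest in ethanol 2 (5232 CPM), the library with 709 low abundant genes. The part of that library in the direction of the list was not tested. Lyn, a Src family kinase gene, was the most abundant (957 ± 137 and 975 ± 68.7 CPM, 0.03 ± 0.10).

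Syk, the kinase that couples phagocytic receptors to the oxidase, had the smallest p of that list. It stood at 323, 307, 339, 314 and 329 CPM in saline 1 to 5 and at 322, 192, 268 and 262 CPM in ethanol 1 to 4. Ethanol 2 was lowest, and ethanol 1 lay inside the saline range. The log2 fold change was -0.31 ± 0.12 (SE; unadjusted p = 0.0278, adjusted p = 0.963, edgeR), and it did not pass. Among genes that supply NADPH, 13 of 15 were tested, 0 were called, 7 were above 0 and the median was 0.04. The most abundant was Idh2, a mitochondrial isocitrate dehydrogenase gene (228 ± 7.98 and 237 ± 20.6 CPM, 0.05 ± 0.07), and the smallest p was that of the malic enzyme gene Me2 (26.4 ± 2.00 and 29.3 ± 3.45 CPM, 0.15 ± 0.10; adjusted p = 0.963, edgeR).

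Markers of other cells were also present. Summed CPM ranged over the 9 libraries from 45.4 to 69.3 for lymphocytes (mostly Cd79b), from 39.3 to 92.0 for border macrophages (mostly Mrc1), from 271 to 473 for astrocytes (mostly Slc1a3), from 199 to 266 for oligodendrocytes (Cnp the highest), from 59.8 to 89.7 for endothelial cells and pericytes (mostly Pecam1) and from 0.0573 to 0.835 for erythroid cells (Alas2 the highest by mean). Camk2a was the highest neuron marker, and Cd3e, Cd3g and Nkg7 were listed at 0. The part of these cells in the levels of the 7 genes was not tested.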

How the data were processed

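Per the submitters' processing notes, reads were handled with Trimmomatic 0.32, STAR 2.4.2a and HTSeq 0.6.1 on GRCm38.p4. Counting settings, annotation release and strand use are not stated. The authors deposited raw counts, whole numbers per gene symbol, for 9 libraries, with no normalization. Each library is 1 mouse, so the spread between mice includes that of sorting and library preparation.

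Genes were kept by filterByExpr (minimum count 10, minimum total 15) and scaled by TMM. The test was the quasi-likelihood F test of edgeR 4.0.16 (R 4.3.3, robust), fitted on all 13067 genes and adjusted over them by Benjamini-Hochberg at 0.05. It was tested on simulated data. SEs were computed as the log2 change divided by the root of F. DESeq2 1.42.0 and limma 3.58.1 were alternatives. Positions, overlaps and lengths come from GENCODE M21 (GRCm38) by symbol, with a length for 12383 genes tested, and promoter sequences from RefSeq.

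The 7 genes and all lists were chosen with earlier results of these data known. Named by rule were the 7 genes, Cybc1, the most abundant gene and that with the smallest ethanol p of each pathway list, the most abundant marker of each cell type, and the 2 abundant genes nearest each of the 7. A gene that the rule names is not reported here. Genes overlapping a member on the other strand, S100a8 and other markers at 0, and further oxidase relatives were added after their values were seen.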

Additional observations from a re-analysis of the deposited data

Results flagged for a closer look

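Over 22 sets of values, the 7 genes and 4 ratios in each group, 2 had a library farther from the rest of its group than Dixon's 95% limit, where chance alone gives about 1 in 20. The log2 ratio of Cyba to Cybb was 8.81 in saline 1, against 6.77 in the next highest saline library. The log2 ratio of Hvcn1 to Cybb was 7.65 in saline 1, against 5.48 in the next. Both rest on the 14 counts of Cybb in that library. Levels were read in CPM and ratios on the log2 scale. In CPM the gap below the other saline libraries for Cybb itself was 0.664 of the range, under the limit of 0.71, and in log2 CPM it was 0.804, past that limit.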

How the results depend on the processing

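In the comparison of ethanol with saline, and in those of age and of the interaction, 0 of the 7 genes passed the threshold under any alternative run. Of 624 recomputed values 569 stayed the same, 31 fold changes or ratios changed sign, and 24 counts or levels moved. For fold changes and ratios, the same means an equal sign and side of the threshold. For counts and levels it means a change within a set limit. The sign changes concern values that were not called. No fold change or ratio was called in the main fits, so a side could change only by a gain. For ethanol, older mice alone gave 0.52 for Cybb and -0.0032 for Rac1, younger mice alone -0.0105 for Hvcn1, and sorted cells as a covariate -0.0091 for Rac1. Leaving out 1 library in turn gave -0.082 to 0.0134 for Ncf1, -0.0171 to 0.0544 for Rac1 and -0.0213 to 0.102 for Hvcn1. For age, leaving out saline 1 and ethanol 2, chosen after earlier results of these data were known, gave 3 genes past the threshold against 0, 1 of the 7 genes under the unadjusted 0.05 (Ncf1), and 0.0602 for Cybb, -0.00047 for Ncf4, -0.0272 for Rac2 and -0.0717 for Hvcn1. With no count filter 97 genes passed for age. Leaving out 1 library gave -0.697 to 0.0386 for Cybb. For the interaction, leaving out 1 library gave 0 to 848 genes past the threshold, the most without ethanol 1, where ethanol 2 is the only older ethanol mouse, and 0 to 1 of the 7 genes under the unadjusted 0.05. Saline 1 is likewise the only older saline mouse without saline 3. Over the fits without 1 library, the term ran from -0.147 to 0.0884 for Cyba and from -0.0592 to 0.208 for Ncf1. The ranges were -0.127 to 0.0917 for Rac1, -0.0094 to 0.213 for Rac2 and -0.0663 to 0.275 for Hvcn1. Without saline 1 and ethanol 2 it was 0.0899 for Rac1. The difference in the ratio of Hvcn1 to Cybb ran from -0.00073 to 0.70 without 1 library. The cause of these shifts was not tested.

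The replicate numbers are shared by both groups, but same-numbered libraries did not deviate together (correlations from -0.17 to 0.01), and the main fits had no replicate block. Such correlations cannot tell whether same-numbered mice shared a litter or a batch. With the replicate block, 0 genes passed for ethanol and for age, as without it (240 and 801 genes under an unadjusted p of 0.05, against 386 and 372), and for age the block gave -0.0347 for Rac1 and -0.0144 for Hvcn1. Cybb has no value under the filter of at least 5 CPM in at least 4 libraries, since it lies below it. Cybb rests on 14 to 110 counts a library, so its counting error is the widest of the 7 genes, and saline 1 lay below saline 2 to 5 by more than that error.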
